A study of Mus musculus with 15 samples.

Results

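Accessible chromatin that stays accessible in every library, far from the ends of genes, was examined in mouse CD4+ T cells with and without the transcription factor gene Irf5. The peak lists of 15 ATAC-seq libraries were merged wherever peaks shared at least 1 bp, which gave 111393 regions. Of these, 21176 had a peak in all 15 libraries and are called constitutive here. Of the constitutive regions, 7446 lay more than 10 kb from the start and the end of every protein-coding gene (6.68% of merged and 35.2% of constitutive regions). These 7446 distal constitutive regions are the subject. For comparison, 9623 constitutive regions lay within 1 kb of a gene boundary and 4107 lay between 1 kb and 10 kb.

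ATAC-seq cuts open chromatin with the Tn5 transposase, so that fragments pile up where DNA is exposed. The cells were CD4+ T cells of mice in 4 groups. IRF5+/+ (wild-type) cells were profiled untreated (0 h, 4 libraries) and after 72 h of activation in vitro (4 libraries). IRF5-/- (knockout) cells were profiled untreated (3 libraries, numbered 1, 3 and 4) and after the same 72 h (4 libraries). The labels speak of bioreps, but give neither the activating stimulus, nor the age of the mice, nor whether each library stands for its own mouse. The p-values therefore measure only the spread between these libraries.

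Distal accessible regions include enhancers, which bind transcription factors and act on genes over a distance, insulator sites bound by CTCF, and start sites that lie deep inside long genes or belong to noncoding RNAs. In resting T cells, factors of the ETS, RUNX and TCF families keep such regions open. Antigen receptor signalling adds AP-1, NFAT and NF-kB factors, and IRF5, a member of the interferon regulatory factor family, is best known as a mediator of inflammatory gene expression in myeloid cells. A region is named below by the protein-coding gene whose body holds it, or otherwise by the gene with the nearest boundary. The name gives a position and not a shown target.

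The level of a region was its highest pileup per 1000000 fragments that MACS2 kept after filtering (FPM). The regions were chosen by the presence of a peak in every library and by position. A peak is itself called from the pileup against its background, so low pileups are missing from the choice, falls are limited most in weak regions, and presence of a peak is not a result. Depth was 20531236 to 29000534 fragments per library. The median level over the distal regions was 3.08 ± 0.316 FPM in untreated wild type (SD, n = 4), 2.22 ± 0.879 in untreated knockout (n = 3), 2.03 ± 0.231 in activated wild type (n = 4) and 1.70 ± 0.108 in activated knockout (n = 4). Knockout library 3 at 0 h stood apart at 1.22, against 2.58 and 2.87 in the other libraries of its group, and it had 29994 peaks against 42357 and 45589. The regions within 1 kb of a gene boundary shifted too, from 6.66 ± 0.877 to 3.57 ± 0.378 in wild type. Each comparison is therefore given on 2 scales. The first is log2 FPM. The second, called centred, subtracts from each log2 value the median of all 21176 constitutive regions in that library, so that a difference is relative to the typical constitutive region.

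**Figure D1:**
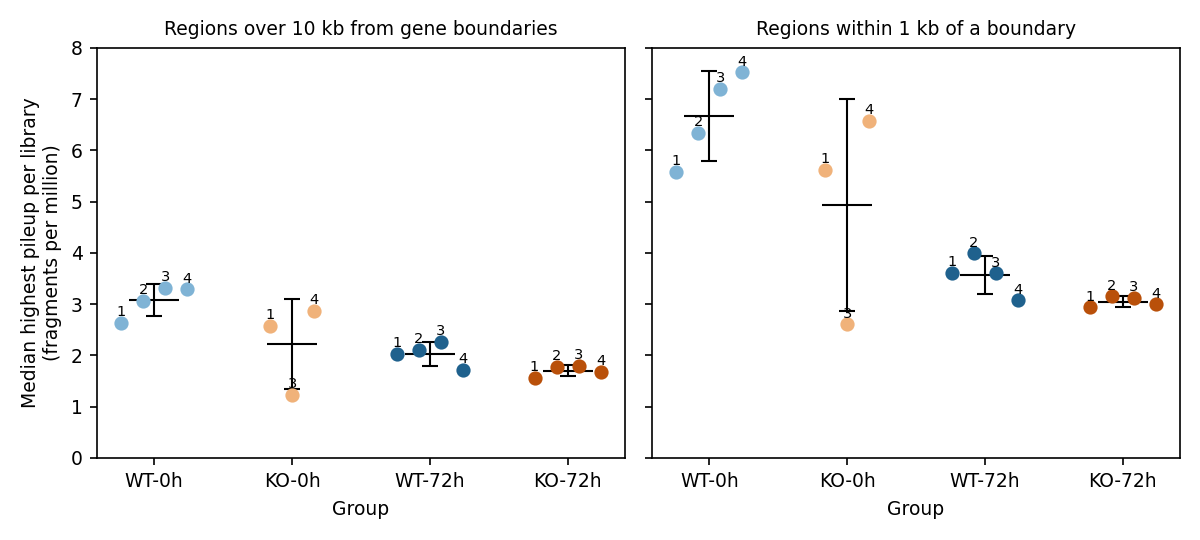
Median of the highest pileup per library (vertical axis, FPM) by group, for the 7446 distal regions (left) and the 9623 regions within 1 kb of a gene boundary (right). Points are libraries with their numbers, bars are the mean and SD of the group. Knockout library 3 at 0 h reads 1.22 on the left, and every activated library lies below every untreated library except that one.

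Markers of the labelled cell type were present: a constitutive region lay at or within 1 kb of 7 of 7 CD4 T cell genes, among them Cd3e, Cd4 and Lck. The same held for 4 of 9 B cell genes, 3 of 10 myeloid genes and 1 of 9 CD8 and NK cell genes. Summed over the B cell genes, the highest peak per gene reached 10.4 to 12.4 FPM in untreated and 10.97 to 13.3 in activated wild type, and 4.55 to 10.7 and 9.39 to 10.7 in knockout. No library had a peak at Cd79b or Ms4a1. The myeloid sum was 12.0 to 17.6 and 10.4 to 12.7 in wild type and 5.51 to 13.35 and 9.26 to 10.2 in knockout, with no peak at Lyz2 or Adgre1 in any library. The CD8 and NK sum was 9.50 to 11.5 and 3.19 to 6.24 in wild type and 3.90 to 11.1 and 4.31 to 5.21 in knockout, with no peak at Klrb1c or Ncr1 in any library. The CD4 T cell sum was 50.4 to 64.8 and 19.7 to 24.8 in wild type and 24.75 to 56.55 and 17.9 to 19.5 in knockout. The part of other cell types in the results was not tested.

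Some distal regions were transcript starts. A RefSeq start window, from 250 bases before to 50 bases after a start, lay wholly within 559 of the 7446 regions (7.51%). In 307 of them the start belonged to a protein-coding gene and in 282 to a long noncoding RNA, with 30 regions holding both kinds. The median distance between the strongest summit and the nearest such start was 85 bp. These regions were higher than the rest, with a median level of 3.35 against 2.31 FPM. The 8 windows below are those of the protein-coding starts whose regions rose most (Rapgef5, Prr5l, Tmeff2 and Stk32c) or fell most (Mbnl1, Srgn, Atxn7l1 and Trat1) after activation in both genotypes and on both scales. They are shown because each places an accessible region, which distance alone would class as remote over an internal start of a gene. Sequences are RefSeq, build GRCm38.p6, 5′ to 3′ on the strand of the gene, with the start at the base after the first 250. Capitals mark matches, on either strand, to AP-1 (TGANTCA), ETS (CGGAAG), RUNX (TGTGGT), TCF/LEF (CTTTGA), the CTCF core (CCANNAGG) and IRF (GAAA, any pair of bases, then GAAA).
Rapgef5: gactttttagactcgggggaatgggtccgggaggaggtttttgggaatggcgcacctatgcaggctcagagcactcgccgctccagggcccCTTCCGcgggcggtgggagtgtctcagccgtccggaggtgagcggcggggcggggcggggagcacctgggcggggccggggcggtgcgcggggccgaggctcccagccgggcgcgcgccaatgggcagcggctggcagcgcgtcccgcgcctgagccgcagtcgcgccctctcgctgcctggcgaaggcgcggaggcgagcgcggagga
Prr5l: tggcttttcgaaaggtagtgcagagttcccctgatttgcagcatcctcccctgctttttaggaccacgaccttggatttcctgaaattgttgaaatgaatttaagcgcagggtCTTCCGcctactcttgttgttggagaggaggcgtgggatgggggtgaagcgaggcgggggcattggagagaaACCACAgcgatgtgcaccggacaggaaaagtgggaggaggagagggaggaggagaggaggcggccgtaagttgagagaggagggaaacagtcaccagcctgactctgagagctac
Tmeff2: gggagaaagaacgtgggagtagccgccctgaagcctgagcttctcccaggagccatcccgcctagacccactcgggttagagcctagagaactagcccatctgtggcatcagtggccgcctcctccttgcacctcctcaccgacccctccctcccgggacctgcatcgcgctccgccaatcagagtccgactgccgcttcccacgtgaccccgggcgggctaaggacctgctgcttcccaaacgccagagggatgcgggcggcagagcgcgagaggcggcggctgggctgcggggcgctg
Stk32c: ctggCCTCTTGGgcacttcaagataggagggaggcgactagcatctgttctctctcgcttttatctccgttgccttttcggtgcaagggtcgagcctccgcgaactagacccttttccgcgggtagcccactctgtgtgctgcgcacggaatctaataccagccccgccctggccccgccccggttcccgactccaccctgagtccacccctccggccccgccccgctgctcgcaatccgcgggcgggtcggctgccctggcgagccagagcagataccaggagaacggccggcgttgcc
Mbnl1: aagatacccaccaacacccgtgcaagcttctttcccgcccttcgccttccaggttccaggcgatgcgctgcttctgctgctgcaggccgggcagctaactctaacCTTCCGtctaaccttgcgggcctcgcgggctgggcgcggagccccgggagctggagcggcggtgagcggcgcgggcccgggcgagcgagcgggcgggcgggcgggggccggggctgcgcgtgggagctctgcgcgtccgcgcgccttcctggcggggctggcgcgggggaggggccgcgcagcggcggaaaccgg
Srgn: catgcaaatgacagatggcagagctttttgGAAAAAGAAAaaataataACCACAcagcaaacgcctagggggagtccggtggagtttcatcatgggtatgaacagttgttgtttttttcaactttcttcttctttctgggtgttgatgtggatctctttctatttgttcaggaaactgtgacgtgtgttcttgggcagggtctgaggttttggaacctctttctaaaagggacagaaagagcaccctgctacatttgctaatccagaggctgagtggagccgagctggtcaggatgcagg
Atxn7l1: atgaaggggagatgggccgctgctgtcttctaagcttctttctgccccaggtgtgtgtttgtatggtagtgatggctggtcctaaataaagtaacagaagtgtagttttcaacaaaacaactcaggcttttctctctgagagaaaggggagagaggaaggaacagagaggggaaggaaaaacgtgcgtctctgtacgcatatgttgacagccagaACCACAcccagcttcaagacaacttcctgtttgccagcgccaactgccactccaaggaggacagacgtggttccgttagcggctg
Trat1: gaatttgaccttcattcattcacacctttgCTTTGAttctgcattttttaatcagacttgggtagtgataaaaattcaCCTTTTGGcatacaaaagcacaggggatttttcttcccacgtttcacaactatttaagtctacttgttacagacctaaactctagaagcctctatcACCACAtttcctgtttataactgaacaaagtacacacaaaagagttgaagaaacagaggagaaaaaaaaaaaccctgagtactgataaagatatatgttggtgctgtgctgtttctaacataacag

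The Rapgef5 window (chr12:117533678-117533977, plus strand) marks an internal transcript start of a Rap guanine nucleotide exchange factor gene and held an ETS match. Its level was 0.848, 1.24, 0.607 and 0.792 FPM in the wild-type libraries at 0 h and 0.777, 0.421 and 1.02 in the knockout libraries at 0 h. At 72 h it was 2.797, 3.12, 2.72 and 2.88 in wild type and 2.76, 2.91, 2.05 and 2.81 in knockout. All 8 activated libraries were above all 7 untreated ones. The difference was log2 1.77 ± 0.28 (SE) in wild type and 1.91 ± 0.30 in knockout in FPM, and 2.55 ± 0.19 and 2.38 ± 0.20 after centring, with adjusted p no higher than 4.6e-09 in limma. The Prr5l window, at chr2:101797658-101797957 on the minus strand, belongs to a gene whose product binds mTOR complex 2 and held an ETS and a RUNX match. Its levels were 1.47, 2.0, 1.94 and 1.74 FPM in untreated and 4.34, 5.33, 5.36 and 4.67 in activated wild type, and 1.2, 0.689 and 1.56 in untreated and 4.09, 3.83, 3.71 and 4.304 in activated knockout. The strongest summit of this region lay 936 bp downstream of the start, outside the window. The Tmeff2 window, at chr1:50927273-50927572 on the plus strand, held none of the 6 motifs, and the Stk32c window, at chr7:139188445-139188744 on the minus strand, held a match to the CTCF core. Their log2 differences on the FPM scale were 1.12 and 0.88 in wild type and 1.52 and 1.503 in knockout. With MACS2's fold enrichment over the local background in place of the pileup, the call was lost for Prr5l in both genotypes (log2 0.08 and 0.30), for Tmeff2 in wild type (0.35) and for Stk32c in both (−0.11 and 0.38).

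The Mbnl1 window, at chr3:60500929-60501228 on the plus strand, begins a transcript of the splicing regulator muscleblind-like 1, and held an ETS match. Its strongest summit lay 708 bp downstream of the start. Its level was 10.9, 11.8, 14.1 and 14.7 FPM in the wild-type libraries at 0 h and 11.1, 5.01 and 12.5 in the knockout libraries at 0 h. After activation the level was 2.11, 2.43, 1.84 and 1.98 in wild type and 2.05, 2.06, 1.88 and 2.199 in knockout. Every untreated library was above every activated one, and the difference was log2 −2.62 ± 0.27 (SE) in wild type and −2.12 ± 0.29 in knockout in FPM, and −1.84 ± 0.10 and −1.65 ± 0.11 after centring. Srgn, at chr10:62507708-62508007 on the minus strand, encodes serglycin, the proteoglycan of secretory granules, and its window held an IRF and a RUNX match. Its region went from 8.17, 8.896, 10.4 and 11.5 to 2.03, 2.21, 2.14 and 2.8 FPM in wild type and from 8.23, 3.63 and 9.64 to 2.002, 1.78, 1.84 and 1.68 in knockout, with no overlap between the times. Trat1, at chr16:48772013-48772312 on the minus strand, encodes a transmembrane adaptor of the T cell receptor complex, and its window held a TCF/LEF, a CTCF core and a RUNX match. The fall was log2 −2.12 ± 0.27 in wild type and −1.55 ± 0.30 in knockout. Atxn7l1, at chr12:33315155-33315454 on the plus strand, fell by 1.87 in wild type and by 1.86 in knockout on the same scale, and its window held a RUNX match. A match is a run of letters and was not tested for binding.

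Over all 679 start windows in distal constitutive regions, ETS matches were present in 20.8%, RUNX in 18.3%, AP-1 in 8.25%, TCF/LEF in 11.5%, the CTCF core in 21.8% and IRF in 2.95%. Over all 32851 start windows of the genome table the shares were 16.9%, 16.8%, 7.81%, 16.003%, 21.3% and 3.44% in the same order. The 10853 windows in constitutive regions at any distance held ETS matches in 35.7%, and their median GC content was 62.7% against 57.3% in the distal regions. After centring, 200 windows lay in distal regions that fell in both genotypes and 168 in distal regions that rose. ETS matches were in 20.5% of the first and 16.7% of the second, and RUNX in 20.5% and 16.1%. AP-1 was in 11% and 8.93% in the same order, and TCF/LEF in 13% and 7.74%. The CTCF core was in 19% and 17.9%, and IRF in 2.5% and 2.98%. These shares are descriptions, and windows of 1 gene can overlap. The deposited files hold no sequence, so the remaining distal regions are given by position.

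The distal regions were narrower and lower than constitutive regions at gene boundaries. Their median width was 1033 bp, against 1334 bp within 1 kb of a boundary, and their median level over the 15 libraries was 2.37 FPM, against 4.54. The middle 90% of distal regions lay between 1.05 and 6.85 FPM. A gene body held 4147 of them (55.7%) and 3299 lay outside every protein-coding gene (44.3%). The median distance to the nearest gene boundary was 31683.5 bp, with 5197 regions more than 20 kb away, 984 more than 100 kb and 287 more than 200 kb. Their share of constitutive regions ran from 24.4% on chromosome 7 and 25.4% on chromosome 11 to 43.5% on chromosome 12 and 43.8% on chromosome 16. They carried the names of 3410 genes, of which 1902 named 1 region and 53 named 10 or more. On the centred scale the range of a distal region over the 15 libraries had a median of 1.22 log2 units, against 0.94 for all constitutive regions, and the SD within groups had a median of 0.207, against 0.146 within 1 kb of a boundary.

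Many distal regions changed after activation in both genotypes, and the prevailing direction and the counts depended on the scale. On the FPM scale, 658 of 7446 regions rose in wild type and 4086 fell at an adjusted p under 0.05 in limma (8.84% and 54.9%). Over all 21176 constitutive regions 5.14% rose and 65.2% fell. In knockout 933 rose and 2722 fell (12.5% and 36.6%), against 7.57% and 39.7% of all constitutive regions. The median log2 difference of the distal regions was −0.68 in wild type and −0.38 in knockout, and over all constitutive regions it was −0.81 and −0.50. After centring, 2871 rose and 2343 fell in wild type (38.6% and 31.5%, with backgrounds of 29.8% and 33.3%). In knockout 2773 rose and 2279 fell after centring (37.2% and 30.6%, with backgrounds of 29.3% and 32.9%). The centred medians were 0.09 in each genotype. With MACS2's fold enrichment in place of the pileup, 8.139% rose and 33.53% fell in wild type. The knockout count on the FPM scale rested on single libraries: 63.1% fell without knockout library 3 at 0 h and 24.4% without knockout library 1 at 0 h. For these fits and for fold enrichment, the shares over all constitutive regions were not counted.

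How far the calls were shared by the genotypes also depended on the scale. After centring, 2468 distal regions rose in both (33.1% of them, with a background of 24.9%). They were 86.0% of those called higher in wild type and 89.0% of those called higher in knockout, and over all constitutive regions these shares were 83.6% and 85.2%. In the other direction 2028 fell in both (27.2%, with a background of 27.5%), which is 86.6% of the wild-type and 89.0% of the knockout calls, against 82.6% and 83.7% over all constitutive regions. Opposite calls were made at 1 region that was higher in wild type and 1 that was lower, and 1678 regions were called in neither genotype. On the FPM scale, 593 rose and 2702 fell in both genotypes (7.96% and 36.3%, with backgrounds of 4.66% and 39.4%), and none was called in opposite directions. On this scale the shared rises were 90.1% of the wild-type and 63.6% of the knockout calls, against 90.6% and 61.5% over all constitutive regions. The shared falls were 66.1% of the wild-type and 99.3% of the knockout calls, against 60.4% and 99.2%. Called the same way in both genotypes on both scales were 593 regions that rose and 2028 that fell (7.96% and 27.2%, with backgrounds of 4.66% and 27.5%). Overlap of libraries was counted on the FPM scale over all distal regions, called or not. Within each genotype, every activated library was above every untreated one at 580 regions (7.79%) and below at 1698 (22.8%). The backgrounds were 4.6% and 19.4% of all constitutive regions.

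**Figure D2:**
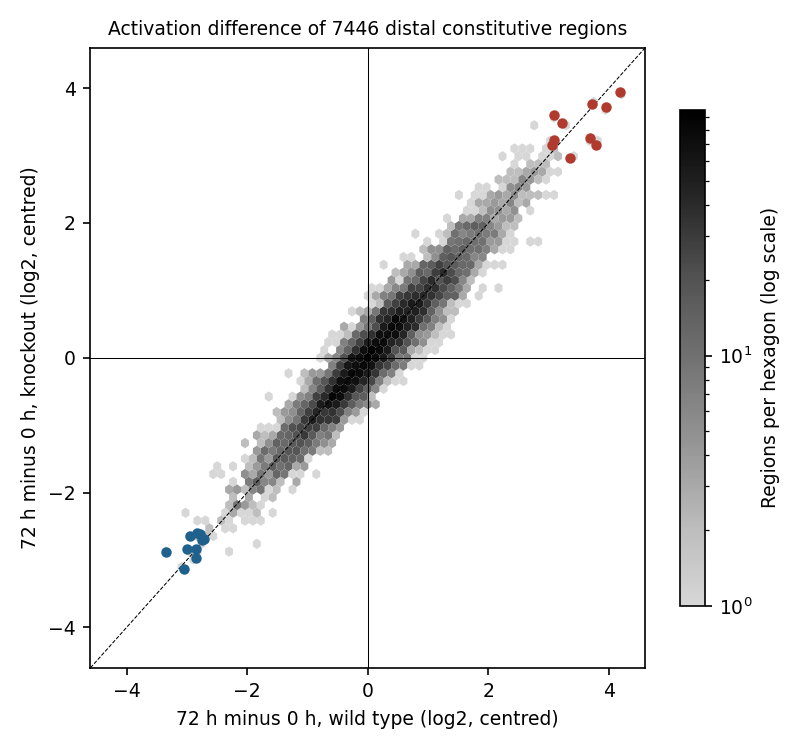
Difference between 72 h and 0 h on the centred log2 scale in wild type (horizontal) and knockout (vertical) for the 7446 distal regions, counted in hexagons (grey, log scale). Red and blue points are the 10 named regions that rose most and the 10 that fell most, and the dashed line marks equal differences. The named regions lie between 3.06 and 4.18 or between −3.34 and −2.71 in wild type.

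The largest rises were at Nfia, Etv6, Vat1l, Ezh2, Arntl2, Dop1b, Gm5544, Tet2, Tnfsf8 and Medag. They were taken from regions called in both genotypes and on both scales, without overlap of libraries within either genotype. At these regions the calls and the lack of overlap thus follow from the choice. The Nfia region (chr4:97995627-97996787, mm10), inside the gene of a nuclear factor I transcription factor, read 0.848, 0.828, 0.809 and 0.713 FPM in the wild-type libraries at 0 h and 0.953, 0.421 and 0.584 in the knockout libraries at 0 h. The activated libraries read 8.11, 8.78, 9.61 and 7.47 in wild type and 6.68, 6.86, 7.3 and 6.503 in knockout. The difference was log2 3.41 ± 0.27 (SE) in wild type and 3.47 ± 0.30 in knockout in FPM, and 4.18 ± 0.15 and 3.94 ± 0.16 after centring, the largest in this set, with adjusted p no higher than 6.7e-25. The Etv6 region (chr6:134225112-134226074) lies inside the gene of an ETS family repressor and read 0.803, 0.724, 0.728 and 0.752 FPM in the wild-type libraries at 0 h and 0.5295, 0.383 and 0.877 in the knockout libraries at 0 h. In activated cells it stood at 7.26, 7.11, 7.47 and 5.44 in wild type and 5.65, 4.88, 5.25 and 5.71 in knockout. All activated libraries of either genotype stood above 4 FPM and no untreated library reached 1. Ezh2 encodes the methyltransferase subunit of Polycomb repressive complex 2, and its region (chr6:47620873-47621885) lies 25603 bp outside the gene. It read 0.669, 0.965, 0.809 and 1.19 FPM in the wild-type libraries at 0 h and 0.847, 0.497 and 1.36 in the knockout libraries at 0 h. At 72 h it was 6.57, 7.95, 7.58 and 6.61 in wild type and 4.895, 5.37, 5.72 and 5.57 in knockout. The rise was log2 3.01 ± 0.27 (SE) in wild type and 2.69 ± 0.30 in knockout in FPM, and 3.79 ± 0.14 and 3.16 ± 0.15 after centring.

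Tet2, a dioxygenase that oxidises methylcytosine, had a region 26178 bp outside the gene (chr3:133436330-133437499). It read 1.12, 1.59, 1.699 and 1.27 FPM in the wild-type libraries at 0 h and 1.55, 0.612 and 1.36 in the knockout libraries at 0 h. After activation the level was 7.74, 10.1, 8.001 and 7.78 in wild type and 7.21, 4.92, 7.21 and 5.71 in knockout. Wild-type library 2 was the highest of the activated libraries. Tnfsf8 encodes CD30 ligand, and its region (chr4:63898851-63899917) lies 37343 bp outside. It read 1.16, 1.34, 1.54 and 1.39 FPM in the wild-type libraries at 0 h and 1.27, 0.421 and 1.46 in the knockout libraries at 0 h. The activated libraries read 6.73, 7.51, 7.77 and 5.13 in wild type and 5.83, 6.06, 6.87 and 6.41 in knockout. The wild-type call was lost with fold enrichment (log2 0.51, adjusted p = 0.052 in limma). The Arntl2 region, in the gene of a circadian bHLH-PAS factor, rose by log2 2.91 in wild type and 2.79 in knockout on the FPM scale. The regions in Vat1l, Dop1b, Gm5544 and Medag rose by 2.28 to 2.94 in wild type and by 2.68 to 3.31 in knockout on this scale.

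The largest falls, chosen under the same conditions as the rises, were at Tle4, Pde2a, S1pr1, Galnt2, Tox, Trpc5, Camk4, Ifngr1, Rsu1 and Gramd3. The Tle4 region (chr19:14695079-14695957) lies 96896 bp from the gene of a Groucho family corepressor and read 12.3, 13.3, 14.5 and 15.1 FPM in the wild-type libraries at 0 h and 13.6, 6.54 and 14.9 in the knockout libraries at 0 h. In activated cells it stood at 1.14, 0.762, 0.689 and 0.661 in wild type and 0.846, 1.25, 1.02 and 1.26 in knockout. Knockout library 3 at 0 h was below the other untreated libraries. The difference was log2 −4.12 ± 0.27 (SE) in wild type and −3.34 ± 0.29 in knockout in FPM, and −3.34 ± 0.13 and −2.88 ± 0.14 after centring, with adjusted p no higher than 3.9e-22. S1pr1 encodes the sphingosine-1-phosphate receptor that lets T cells leave lymph nodes. Its region (chr3:115682388-115683393), 27040 bp outside the gene, read 15.5, 15.6, 16.9 and 17.2 FPM in the wild-type libraries at 0 h and 14.7, 7.42 and 17.1 in the knockout libraries at 0 h. At 72 h it was 1.26, 1.23, 1.19 and 1.09 in wild type and 0.979, 1.66, 1.02 and 1.45 in knockout. The fall was log2 −3.78 ± 0.27 (SE) in wild type and −3.304 ± 0.29 in knockout in FPM, and −2.999 ± 0.12 and −2.84 ± 0.13 after centring.

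Tox encodes an HMG-box factor needed for CD4 T cell development, and a region inside it (chr4:6970184-6970946) read 14.2, 14.8, 18.2 and 19.4 FPM in the wild-type libraries at 0 h and 14.97, 6.504 and 17.8 in the knockout libraries at 0 h. After activation the level was 1.38, 1.27, 1.57 and 1.17 in wild type and 1.2, 1.37, 1.07 and 1.26 in knockout. The Pde2a region (chr7:101465979-101467078), in the gene of a cyclic nucleotide phosphodiesterase, read 13.9, 13.2, 14.4 and 15.2 FPM in the wild-type libraries at 0 h and 13.7, 6.69 and 13.6 in the knockout libraries at 0 h. The activated libraries read 0.932, 1.09, 1.23 and 0.817 in wild type and 0.846, 0.727, 1.15 and 0.889 in knockout. In both genes the lowest untreated library lay above 6 FPM and the highest activated library below 2. Camk4 encodes a calcium and calmodulin dependent kinase, and its region (chr18:32969609-32970856) fell by 3.52 in wild type and by 3.17 in knockout in log2 FPM. The region 13060 bp from Ifngr1, the ligand-binding chain of the interferon gamma receptor (chr10:19577534-19578889), read 8.701, 7.97, 9.39 and 8.67 FPM in the wild-type libraries at 0 h and 6.25, 3.099 and 7.06 in the knockout libraries at 0 h. In activated cells it stood at 0.649, 0.798, 0.842 and 0.583 in wild type and 0.4895, 0.686, 0.598 and 0.702 in knockout. The regions in Galnt2, Trpc5, Rsu1 and Gramd3 fell by 3.49 to 3.72 in wild type and by 3.09 to 3.43 in knockout.

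**Figure D3:**
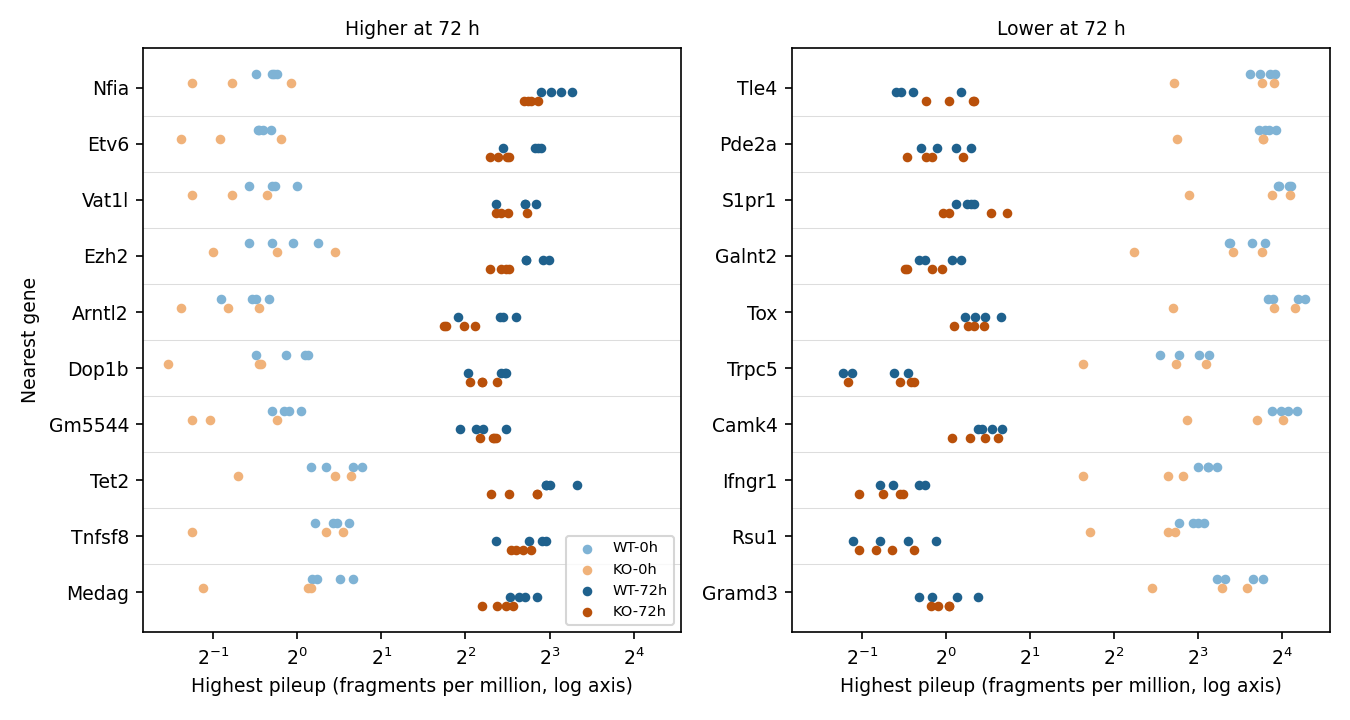
Highest pileup in each library (horizontal axis, FPM, log axis with base 2) at the 10 distal regions that rose most and the 10 that fell most, by nearest gene (vertical axis). Points are libraries, coloured by group. At Nfia the activated libraries lie between 6.50 and 9.61 and the untreated ones between 0.421 and 0.953.

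The centred difference is given next by the mean level of a region. A constitutive region needs a peak in every library, so a region of the lowest quartile has little room to fall, and the mean that sets the quartiles includes both times. Part of the pattern is therefore fixed by the choice of regions. Constitutive regions were split into quartiles of their mean over all 15 libraries, at 1.94, 3.22 and 5.27 FPM. The median centred difference of the distal regions in wild type was 0.35, 0.16, −0.22 and −0.42 from the lowest to the highest quartile, and 0.33, 0.13, −0.22 and −0.43 in knockout. Regions within 1 kb of a boundary showed 0.42, 0.08, −0.13 and −0.22 in wild type over the same quartiles. In the lowest quartile, 46.1% of 2752 distal regions rose and 14.2% fell in wild type after centring, and in the highest quartile 16.2% of 829 rose and 63.9% fell. Distal regions made up more of the low quartiles: 37.0% of them were in the lowest and 11.1% in the highest quartile, against 12.2% and 40.6% of the regions near boundaries. Counts over distal regions are thus counts over regions of lower level.

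**Figure D4:**
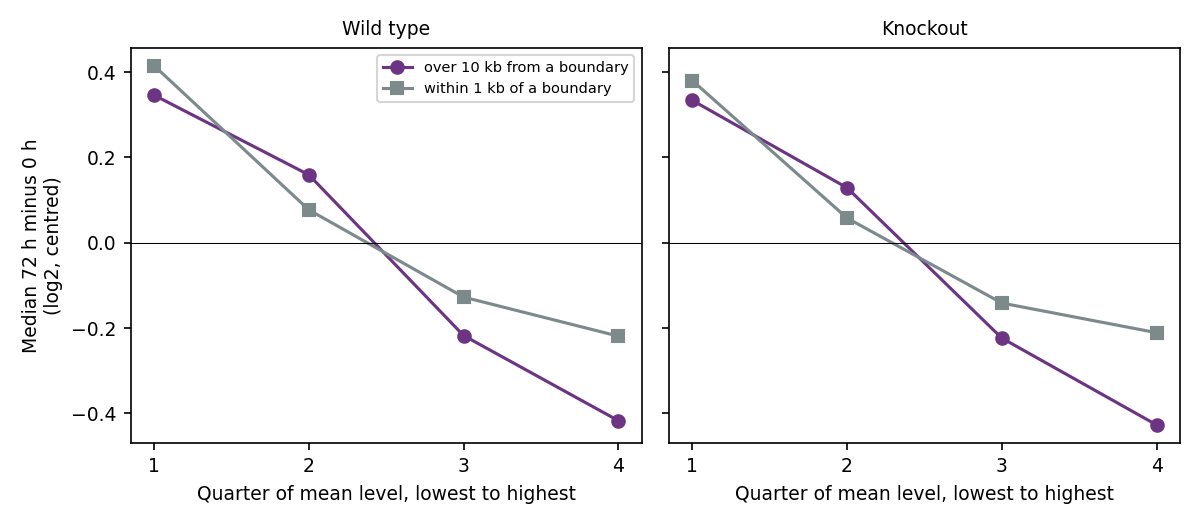
Median difference between 72 h and 0 h on the centred log2 scale (vertical axis) by quartile of the mean level (horizontal axis), in wild type (left) and knockout (right). Circles are distal regions and squares are regions within 1 kb of a boundary. Distal regions run from 0.35 to −0.42 in wild type, and the squares from 0.42 to −0.22.

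Several genes held many distal regions. Akap13, a gene of a kinase-anchoring protein, and Foxp1, a forkhead factor of naive T cells, named 22 each, and Bach2, a repressor of effector programmes, named 20. Ets1 named 19 and Btg1, an antiproliferative gene, named 18, all of the last outside the gene. After centring, 11 of the 20 Bach2 regions fell in both genotypes and 2 rose. At Btg1 10 of 18 fell and none rose, and on the FPM scale the same numbers were called. Foxp1 was mixed, with 5 of 22 that rose and 6 that fell after centring, and Ets1 had 6 that rose and 10 that fell among 19. At Akap13 4 rose and 8 fell. The backgrounds for calls in both genotypes were 24.9% higher and 27.5% lower after centring, and 4.66% and 39.4% on the FPM scale. The Foxp1 counts were near the centred backgrounds, and regions of 1 gene are not independent. Within Bach2 the mean of the 2 genotypes ran from −2.001 to 0.93 on the centred log2 scale.

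Lists of genes were followed next, counting a distal region for a gene only within 100 kb of it. Genes of the naive and quiescent state named 90 such regions, from 14 of 20 genes. After centring, 46 of the 90 fell in both genotypes and 14 rose, where 27.5% of all constitutive regions fell and 24.9% rose. Their median difference was −0.34 in wild type and −0.31 in knockout, against −0.03 and −0.04 over all constitutive regions. On the FPM scale 50 fell and 2 rose in both genotypes, with backgrounds of 39.4% and 4.66%. S1pr1, with 10 regions, had 5 that fell and 3 that rose after centring. T cell identity genes named 48 regions, of which 19 fell and 11 rose in both genotypes after centring, with medians of −0.19 and −0.24. Among them, 4 of 8 Tox regions fell and none rose, while 3 of 7 Runx1 regions rose and 1 fell. The Runx1 region at chr16:92747882-92748992 went from 0.759, 0.793, 1.42 and 0.95 to 2.96, 3.19, 3.37 and 3.27 FPM in wild type and from 0.706, 0.497 and 0.877 to 2.94, 2.38, 3.24 and 2.62 in knockout. Another, at chr16:92801266-92802255, went the other way, from 5.98, 6.79, 8.495 and 7.68 to 2.55, 2.32, 2.297 and 1.91 and from 6.53, 3.33 and 6.92 to 1.69, 2.22, 1.96 and 2.11. Both differences were called in both genotypes and on both scales, and their libraries did not overlap.

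Growth and metabolism genes named 24 regions, from 10 of 16 genes. After centring, 16 rose in both genotypes and 3 fell. Their median difference was 0.67 in wild type and 0.70 in knockout, and the backgrounds were 24.9% higher and 27.5% lower. On the FPM scale 4 rose and 4 fell in both, with backgrounds of 4.66% and 39.4%. Cdk6, the cyclin D partner kinase of the G1 phase, named 6 regions, of which 5 rose and none fell after centring, and 3 rose on the FPM scale. Its most risen region, at chr5:3494144-3495249, had a centred mean over the genotypes of 2.21, against a median of 1.27 over the 6. It read 1.34, 1.24, 1.46 and 1.74 FPM in the wild-type libraries at 0 h and 1.09, 0.6504 and 1.36 in the knockout libraries at 0 h. At 72 h it was 4.09, 3.59, 4.21 and 3.81 in wild type and 2.98, 2.99, 3.54 and 3.602 in knockout. The rise was log2 1.45 ± 0.28 (SE) in wild type and 1.72 ± 0.30 in knockout in FPM, and 2.23 ± 0.14 and 2.19 ± 0.15 after centring. All 3 regions of Hif1a, the hypoxia-inducible factor, rose after centring. The region that rose most is given next, with a centred mean over the genotypes of 1.42 (median of the 3 regions 0.69). At chr12:73887696-73888745 the level went from 2.72, 3.103, 2.99 and 3.21 to 4.91, 5.37, 5.74 and 4.59 in wild type and from 2.75, 0.956 and 2.63 to 3.12, 3.15, 3.76 and 3.51 in knockout. On the FPM scale, the knockout call at this region was lost without knockout library 3 at 0 h (log2 0.33, adjusted p = 0.11 in limma), and both calls were lost with fold enrichment (log2 0.06 and 0.20).

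Genes induced by T cell receptor signalling named 39 regions, of which 15 rose and 13 fell after centring in both genotypes, with medians of 0.10 and 0.13. The backgrounds were 24.9% higher and 27.5% lower over all constitutive regions, and 33.1% of distal regions rose and 27.2% fell. The counts of this list were not far from these shares. Nfkb1, a subunit of NF-kB, had 4 of 6 that rose and 1 that fell. Icos, a costimulatory receptor, had 2 of 6 that rose and 3 that fell. Its most fallen region, at chr1:60977587-60978221, went from 7.54, 9.28, 11.4 and 10.2 to 2.39, 2.504, 3.02 and 2.37 FPM in wild type. Nfatc1 had 1 of 6 that rose and 2 that fell. The effector genes of Th1, Th2 and Th17 cells named 32 regions with 7 that rose and 10 that fell, close to the same backgrounds. Ifng, the defining cytokine of Th1 cells, named 4 with 1 that fell after centring, chr10:118418807-118419837, which went from 9.504, 10.2, 12.5 and 11.9 to 3.08, 2.69, 3.45 and 3.15 in wild type and from 8.93, 4.48 and 10.96 to 2.67, 3.47, 3.202 and 2.67 in knockout. Rora had 2 of 9 that rose and 3 that fell, and Stat4 had 1 of 4 that rose and 2 that fell.

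The list of Ikaros, NF-kB, STAT and IRF regulators named 20 regions, of which 11 fell and 4 rose after centring in both genotypes, with median differences of −0.38 and −0.63. For this and the following activation counts, the backgrounds were 24.9% higher and 27.5% lower over all constitutive regions. Over the distal regions they were 33.1% and 27.2%, and these small counts were not tested against either. All 3 Stat5b regions fell, and the highest, at chr11:100823902-100824810, went from 6.78, 7.83, 9.71 and 10.01 to 2.19, 2.69, 2.49 and 1.87 in wild type and from 7.17, 3.52 and 8.52 to 1.51, 1.49, 1.75 and 2.199 in knockout. Ikzf1, which encodes Ikaros, had 3 of 6 that fell and none that rose. With fold enrichment the fall of the Ikzf1 region at chr11:11741621-11743007 was no longer called in either genotype (log2 −0.22 in each). Irf8 had 2 regions and both rose after centring, with neither called on the FPM scale. Regulatory and follicular T cell genes named 17 regions with 8 that rose and 4 that fell, and chromatin architecture genes named 10 with 1 that rose and 2 that fell. Of the marker lists, B cell genes named 2 regions, both in Bank1, and both rose after centring. Myeloid genes named 3, with 1 at Spi1 that rose and 2 at Cebpb that fell, and CD8 and NK genes named 7, with 3 that rose and 1 that fell. For genotype at 72 h after centring, 1 region of the T cell identity list, 1 of the T cell receptor list and 2 of the effector list were called (backgrounds of 0.94% higher and 0.264% lower).

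**Figure D5:**
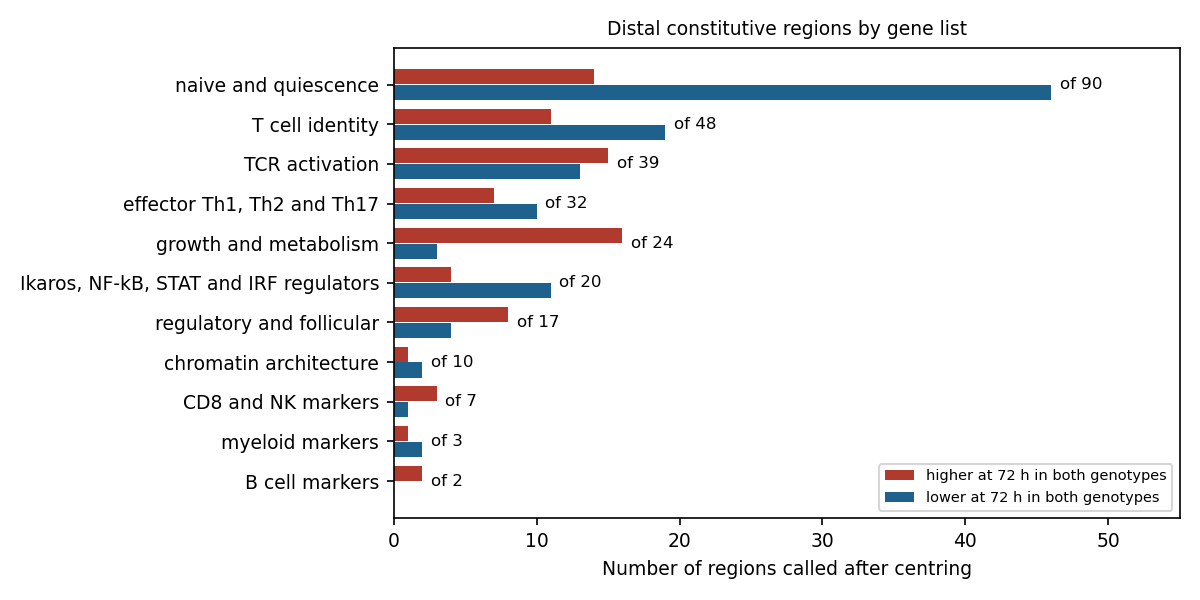
Number of distal regions called higher (red) or lower (blue) at 72 h in both genotypes on the centred scale (horizontal axis), by gene list (vertical axis), with the number of distal regions of each list beside the bars. Of the 90 regions of the naive and quiescence list 46 are lower and 14 higher, and of the 24 of the growth and metabolism list 16 are higher and 3 lower.

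Loss of Irf5 in untreated cells gave no call on the FPM scale. None of the 7446 distal regions and 0.0% of all constitutive regions passed the threshold in either direction, with 2845 distal regions at an unadjusted p under 0.05 in limma (38.2%, against 36.8% of all constitutive regions). The knockout was lower in 7421 of 7446 regions, and the median log2 difference was −0.52, against −0.52 over all constitutive regions. That median was −0.14 without knockout library 3. Without knockout library 4, 76.5% of distal regions were called lower. The share over all constitutive regions was not counted in fits without a library, so these counts are not particular to distal regions. After centring, 6 distal regions were called higher and none lower, where the background was 0.0331% and 0.0%. They were regions named by Iqub, Rpusd4, Cdk8, Lrrc4c, Pex2 and Sfi1, which were chosen after their values were seen. At Rpusd4, Cdk8 and Pex2 the differences were log2 0.48 ± 0.28, 0.17 ± 0.28 and 0.06 ± 0.27 (SE) in FPM. After centring they were 1.03 ± 0.21, 0.72 ± 0.14 and 0.60 ± 0.12. At Rpusd4 knockout library 3, low over the distal regions as a whole, was the highest untreated library at 8.19 FPM. The Sfi1 region (log2 0.42 ± 0.08 after centring) is 1 of the 5 highest regions given further on, where the source of fragments is uncertain, and the Lrrc4c region (chr2:98662247-98662892) lies next to another. There the untreated wild-type libraries read 15.9, 15.2, 15.4 and 15.5 FPM and the knockout 17.6, 17.4 and 16.7. Those ranges do not overlap, and the knockout was higher by log2 0.15 ± 0.27 on the FPM scale and by 0.70 ± 0.14 after centring. At Iqub (chr6:24348008-24348741) wild type read 0.759, 0.517, 0.526 and 0.792 and knockout 1.66, 0.459 and 1.705, where library 3 was below every wild-type library. After centring without knockout library 3 the count was 1 in place of 6, and it was none without wild-type library 2 or without wild-type library 3. It was 3 without wild-type library 4 at 0 h, 2 without wild-type library 1, knockout library 3 or knockout library 4 at 72 h, 10 without wild-type library 2 at 72 h, and 11 without knockout library 4 at 0 h or knockout library 1 at 72 h.

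At 72 h, too, no distal region was called for genotype on the FPM scale, where the background was 0.0% in each direction and 543 distal regions had an unadjusted p under 0.05 (7.29%, against 5.03% of all constitutive regions). The median log2 difference was −0.23, against −0.22 over all constitutive regions. Leaving out knockout library 3 at 0 h, which enters this comparison only through the shared spread, called 521 lower and 13 higher. Counts over all constitutive regions were not made for fits without a library. After centring, 87 distal regions were called higher in knockout and 34 lower (1.17% and 0.457%), against 0.94% and 0.264% of all constitutive regions. These centred counts depended on single libraries, with 10 higher and 4 lower without wild-type library 2 at 72 h, and 216 higher and 91 lower without knockout library 1 at 72 h. They were 22 and 9 without knockout library 2, 50 higher without knockout library 3, 20 and 10 without knockout library 4, and 135 and 21 without wild-type library 3.

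The largest centred differences at 72 h, chosen after their values were seen, were higher in knockout at Ism1, Tshz1, Rasa1, Atp11b and Hs3st5 and lower at Rassf2, Arid2, Ets1, Dgkg and Tmem154. At Rassf2, a Ras association domain gene, the region at chr2:132004516-132005303 read 2.88, 3.27, 2.79 and 2.26 FPM in wild type and 1.42, 1.33, 1.15 and 1.26 in knockout. The groups did not overlap, and the difference was log2 −1.11 ± 0.28 on the FPM scale (adjusted p = 0.43 in limma) and −0.87 ± 0.17 after centring (adjusted p = 0.0053). The Ets1 region at chr9:32660224-32662156 read 1.95, 2.76, 1.99 and 1.83 and 1.02, 0.807, 1.62 and 0.795, again without overlap. Dgkg, a diacylglycerol kinase gene, read 2.92, 4.35, 2.91 and 2.1 and 1.65, 1.45, 1.45 and 1.36 at chr16:22526104-22526821. In the other direction, the region 347618 bp from Hs3st5 (chr10:36157843-36158972) read 0.932, 0.689, 1.19 and 0.505 in wild type and 1.07, 2.099, 1.37 and 1.17 in knockout, where the groups overlapped. At Ism1, Tshz1, Rasa1 and Atp11b the lowest activated wild-type library was library 2 each time, at 0.508, 0.435, 0.327 and 0.472 FPM.

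The effect of activation was tested for a difference between the genotypes. On the FPM scale none of the distal regions was called (background 0.0% in each direction), with 271 at an unadjusted p under 0.05 (3.64%, against 2.14% of all constitutive regions) and a median of 0.30 on the log2 scale, which was −0.08 without knockout library 3 at 0 h. After centring 1 distal region was called, with a background of 0.00472% for negative differences, and it was the region 11108 bp from Ctif (chr18:75419010-75420097), a gene of a translation initiation factor that binds the cap-binding complex. It read 10.1, 10.2, 13.6 and 13.4 FPM in the wild-type libraries at 0 h and 11.2, 5.66 and 12.1 in the knockout libraries at 0 h. After activation the level was 4.34, 4.21, 4.02 and 3.19 in wild type and 2.18, 1.74, 2.26 and 2.11 in knockout. Knockout at 72 h lay below wild type at 72 h in every library. The interaction was log2 −0.88 ± 0.14 after centring (adjusted p = 0.0022 in limma) and −0.57 ± 0.39 on the FPM scale (adjusted p = 0.86).

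No distal constitutive region carried the name of Irf5, so the targeted gene could not be followed here. Dock2, a guanine nucleotide exchange factor for Rac in lymphocytes, named 4. The strongest, at chr11:34769100-34772068, went from 6.56, 6.48, 7.89 and 8.15 to 2.27, 1.996, 2.18 and 1.71 FPM in wild type and from 5.72, 2.52 and 6.09 to 2.18, 1.695, 2.18 and 2.01 in knockout. It fell on both scales, by log2 1.83 in wild type and by 1.15 in knockout on the FPM scale. The region at chr11:34505903-34507008 was higher at 72 h after centring, by log2 1.33 ± 0.19 and 0.68 ± 0.21, and was not called on the FPM scale (adjusted p = 0.06 and 0.56 in limma). At the other pair the libraries ranged from 0.650 to 2.73 FPM.

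The most constant distal regions, by their range on the centred scale, were in Selp, Ptprs, Rap1gds1 and Tet1 and 187937 bp from Rbms3. The Selp region (chr1:164135080-164137086), in the gene of P-selectin, varied by 0.18 log2 units over the 15 libraries after centring. Its level was 11.2, 12.1, 12.7 and 13.1 FPM in the wild-type libraries at 0 h and 11.01, 4.78 and 11.7 in the knockout libraries at 0 h. The activated libraries read 7.38, 8.27, 8.12 and 6.73 in wild type and 5.79, 5.97, 6.83 and 6.13 in knockout. Its pileup followed the median of the constitutive regions, low knockout library 3 included, which the choice by the smallest centred range requires. The 5 regions of highest mean level were of another kind. The region 24737 bp from Col19a1, on the pseudogene Gm10222, averaged 132 FPM and ranged from 87.5 to 161. A pair of regions on the ribosomal RNA copies Rn18s-rs5 and AY036118, whose nearest gene is Esp38, averaged 49.3 and 44.5, the region in Sfi1 averaged 34.1, and a region 1035165 bp from Lrrc4c averaged 20.9. Sequences with near-identical copies elsewhere can collect fragments that belong to the copies, so the source of these levels is uncertain. After centring, the Col19a1 and Sfi1 regions were also called higher in knockout at 72 h, by log2 0.42 and 0.50.

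Noncoding genes lay within 1 kb of 868 distal regions (11.7%), against 13.9% of all constitutive regions. Of the 868, 681 lay at long noncoding RNAs, 28 at transfer RNAs and 13 at microRNAs. Segments of antigen receptor genes, which are not counted as protein-coding genes, accounted for another 16, with 8 at the T cell receptor beta chain, 2 at the alpha chain and 6 at variable segments of the immunoglobulin heavy chain. The heavy chain regions averaged 1.02 to 3.01 FPM. The region at Trbv12-1, a variable segment of the beta chain (chr6:41112972-41113891), read 10.3, 10.4, 12.2 and 14.1 FPM in the wild-type libraries at 0 h and 9.53, 4.32 and 10.9 in the knockout libraries at 0 h. In activated cells it stood at 4.42, 4.68, 5.02 and 3.69 in wild type and 3.92, 4.24, 4.31 and 4.44 in knockout. It fell in both genotypes on both scales, by 1.396 in wild type and by 0.86 in knockout on the FPM scale. The region at Trbv5 (chr6:41061209-41063404) was higher after centring, by log2 1.28 and 0.97, and was not called on the FPM scale. Segments of these loci resemble each other, so fragments may be shared among them. The region 768 bp from Mir17, the first microRNA of the miR-17 to miR-92 cluster (chr14:115040022-115042903), read 7.94, 9.65, 10.7 and 11.8 FPM in untreated and 6.53, 6.21, 7.12 and 5.09 in activated wild type, and it was called lower in wild type on the FPM scale and higher in knockout after centring. The region 818 bp from Mir652 (chrX:142736930-142738182) was called higher after centring in both genotypes, by log2 1.09 and 1.24.

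At the limit of 10 kb, the nearest regions included were one in Il18r1, 10007 bp from a boundary with a mean level of 4.795 FPM, and one 10010 bp from Clic4 with 4.47. The nearest left out were in Bicral, at 9999 bp with 2.27, and beside Coq2, at 9997 bp with 3.26.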

How the data were processed

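The authors deposited 1 MACS2 peak list per library, and 15 such lists were read. The submitters' processing notes name Trim Galore 0.5.0, Bowtie2 2.2.9, HOMER 4.10.4 and the build mm10. Peaks were called per library with MACS2 2.1.1.20160309 at a q-value limit of 0.05, per the file headers. The deposited values used were the pileup at the summit, a coverage signal, the fold enrichment ratio over MACS2's local background, and −log10 of the q-value. Per the file headers, wild-type library 4 at each time came from an alignment numbered 5. A further 8 lists of merged or final peaks were not used, since they hold no separate libraries.

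Lists were merged in Python 3.11.15 with pandas 2.3.3, and gene bounds came from RefSeq (GRCm38.p6, 21887 protein-coding genes), matched to the mm10 positions. The highest pileup in a region was scaled to 1000000 fragments left after MACS2's filtering (FPM), and log2 values were fitted without a pseudocount in limma 3.58.1 (R 4.3.3). The fit covered all 21176 constitutive regions with 4 group means, a variance trend, 15 libraries and no covariate. Benjamini-Hochberg adjustment ran over all regions, and calls were made at 0.05. Residual degrees of freedom were 11. limma's prior degrees of freedom were infinite on the FPM scale and 37.27 on the centred scale, so single-region p-values rest largely on the spread pooled over regions. The fit was tested on simulated data with independent noise in each library. That noise held no shift of whole libraries, so the simulation cannot show how calls behave under such shifts.

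Named regions were the 10 with the largest mean activation difference in each direction under the stated conditions, up to 5 per genotype comparison, the 5 highest, the 5 most constant, the 5 genes with most regions, and up to 3 genes per list. Regions named for genotype were called on the centred scale only. For genes of the lists, the regions given with values had the highest or the lowest mean activation difference of their gene. The regions and the gene lists were chosen with earlier results of these data known. Alternatives were other scalings, fold enrichment, a pseudocount of 0.5, a filter on low levels, no trend, a replicate block, stricter peaks, wider overlap, other distances, autosomes, single peaks and leaving out each library. The centred fits without each library and with the block were chosen after seeing the data. Fragments are not identified molecules, and the depth limits precision by counting error.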

Additional observations from a re-analysis of the deposited data

Results flagged for a closer look

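Within groups of 4 libraries, 8 of 201 sets of values at named regions had a library that stood apart by Dixon's criterion (gap to the nearest library over the range). That is 3.98% of the sets, and chance gives about 1 in 20. At Dop1b wild-type library 4 at 72 h read 4.08 FPM against 5.35 to 5.59 in the others (ratio 0.842). At Tet2 wild-type library 2 at 72 h read 10.1 against 7.74 to 8.001 (0.888), and at Cebpb the same library read 2.32 against 1.82 to 1.88 (0.896). Wild-type library 2 at 0 h read 5.83 against 6.34 to 6.43 at Tshz1 (0.841) and 2.17 against 1.497 to 1.56 at Tmem154 (0.904). Knockout library 1 at 72 h read 1.29 against 1.96 to 2.02 at Atp11b (0.925) and 1.78 against 2.02 to 2.06 at Stat4 (0.856). At Tigit knockout library 3 at 72 h read 2.86 against 2.099 to 2.18 (0.893).

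The region near Ctif differed in its response to activation between the genotypes by log2 −0.88 on the centred scale. The same difference on the FPM scale was −0.57 and was not called.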

How the results depend on the processing

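The scale decided the counts of activation calls. For quantile normalization, fold enrichment and the other alternative fits, only the distal regions were counted, without a share over all constitutive regions. The shares of distal regions called higher and lower were 38.56% and 31.47% in wild type after centring, with a median of 0.0945, and 31.63% and 34.77% under quantile normalization, with a median of −0.0367. In knockout 37.24% were higher after centring (median 0.0901) and 31.2% under quantile normalization. For genotype, centring called 0.0806% higher at 0 h (median 0.0201), 1.168% higher and 0.4566% lower at 72 h, and 0.0134% for the interaction. Quantile normalization called 0.927% and 0.591% at 72 h and 0.0134% for the interaction, and none at 0 h (median 0.00468), where the 6 centred calls were lost. With fold enrichment 8.139% were higher and 33.53% lower in wild type (median −0.222), the genotype median at 0 h was −0.0501, and none was called for genotype at either time or for the interaction. With peaks covering at least 0.5 of a region in every library, 1981 regions remained, of which 2.978% were higher in wild type and 5.704% in knockout. Stricter peaks left 6173 regions and a distance over 20 kb left 5197.

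Leaving out 1 library at a time gave these ranges over the distal regions, with no share over all constitutive regions beside them. In wild type, the share called higher was 6.984% to 12.3% in FPM and 36.06% to 38.84% centred, and the share called lower was 48.55% to 64.24% and 29.73% to 31.84%. In knockout, the share called higher was 10.07% to 16.05% and 33.95% to 37.36%, and the share called lower was 24.36% to 63.08% and 28.55% to 30.86%. The medians ranged from −0.754 to −0.606 and from 0.0676 to 0.112 centred in wild type, and from −0.769 to −0.144 and from 0.0773 to 0.104 in knockout. For genotype at 0 h, higher calls ranged from 0.0% to 0.0134% (centred to 0.148%), lower calls from 0.0% to 76.48% (centred to 0.0134%), and the median from −0.751 to −0.141 (centred 0.00671 to 0.0395). At 72 h, higher calls ranged from 0.0% to 0.175% (centred 0.134% to 2.901%), lower calls from 0.0% to 6.997% (centred 0.0537% to 1.222%), and the median from −0.304 to −0.173 (centred −0.0158 to 0.0385). The interaction median ranged from −0.0776 to 0.532 (centred −0.0302 to 0.0220), and its centred calls from 0.0134% to 0.0269%.

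Correlations by replicate number were mostly weak, which does not settle whether the libraries were paired. Deviations of same-numbered libraries of a genotype at 0 h and 72 h correlated at −0.0609 to 0.0370. Those of the same time in both genotypes correlated at −0.167 to 0.228, highest between the untreated libraries numbered 4. Among libraries of its genotype at the other time, 1 of 15 libraries correlated best with its own number. Knockout library 2 at 72 h has no untreated partner and could not do so. A replicate block moved no share of calls by over 1.5 times in FPM (7.66% higher and 51.3% lower in wild type, 8.92% and 29.5% in knockout). With the block and centring together, the shares were 38.44% and 31.53% in wild type (median 0.0945), 35.67% higher in knockout (median 0.0819), 0.0134% higher at 0 h (median 0.0179), 0.940% and 0.390% at 72 h, and 0.0134% for the interaction.

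For single regions, 5 values turned sign. With fold enrichment these were Stk32c in wild type (log2 −0.11, adjusted p = 0.626 in limma) and the Stat4 region in wild type (0.14, adjusted p = 0.402) and knockout (0.18, adjusted p = 0.329). The Pex2 genotype difference at 0 h was −0.04 without wild-type library 1 and −0.0785 without knockout library 1, both at 0 h and in log2 FPM, and the highest centred value without 1 library was 0.816. A further 28 values lost their call and 230 gained 1, while 4528 kept both direction and call. The causes were not tested.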
